A study of Mus musculus with 35 samples.

Results

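Oxidative phosphorylation was followed in podocytes, the cells that cover the outer face of the glomerular capillaries, through the genes for the subunits of the respiratory chain and of ATP synthase. A gene was a member if its mouse symbol began with the name stems of the subunits of complexes I to V (Ndufa, Ndufb, Ndufs, Ndufv, Sdha to Sdhd, Uqcr, Cox4i to Cox8, Atp5) or of the protein-coding genes of mitochondrial DNA, with assembly factors and pseudogenes left out. The rule found 101 rows among the 33292 genes of the table, 88 of them nuclear and 13 mitochondrially encoded. It used names alone and no measured value. Ndufc1, Ndufc2, Cyc1 and Cycs, which also belong to the chain, fall outside these stems. Of them, Ndufc1 and Cyc1 are named with the related genes, and values of Ndufc2 and Cycs are not reported here.

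RNA was sequenced from 35 mice, 1 library per mouse, in 6 groups made of 3 genotypes and 2 treatments. All mice carried rtTA under a human podocyte promoter, a tetO::Cre transgene, the mT/mG reporter and 1 floxed Lmx1b allele, whose homeodomain exons are removed by Cre, and all received doxycycline at 2 mg/ml in the drinking water and were studied at day 7. The second Lmx1b allele was wild-type in the control mice (Lmx1b+/lox, labelled WT), H77L in Lmx1bH77L/lox mice and C118F in Lmx1bC118F/lox mice; H77L and C118F are missense changes in the LIM domains of Lmx1b, a LIM homeodomain transcription factor. Mice were given the proteasome inhibitor bortezomib (Btz) at 0.3 µg per g body weight or its solvent DMSO, which gave 6 WT DMSO, 6 WT Btz, 6 H77L DMSO, 6 H77L Btz, 6 C118F DMSO and 5 C118F Btz mice, aged 7 to 10 weeks. Cre, and therefore the green fluorescence used for sorting, depended on the podocyte promoter, so a WT mouse is one in which the floxed allele was lost and 1 wild-type allele stayed. The values are TPM, a length-corrected share of the transcripts in each library, and the deposited values correspond to between 5265161 and 24137561 counted reads per mouse (median 19155197).

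The respiratory chain moves electrons from NADH (complex I) and succinate (complex II) through complex III to oxygen at complex IV and pumps protons out of the mitochondrial matrix, and complex V, the ATP synthase, makes ATP as the protons return. Every complex but II is built from subunits made from both genomes: the nuclear ones are imported, and the mitochondrially encoded ones form the membrane core. Nuclear respiratory factors, GABP (an ETS family factor), oestrogen-related receptors and YY1 are known to bind promoters of many nuclear subunit genes.

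The 4 promoters below are shown because they belong to the subunits with the lowest adjusted p between H77L and WT mice under DMSO that carried such a factor's letters upstream of the start; 8 subunits were looked up and Ndufs7, Ndufb10, Ndufv1 and Ndufa7 carried none there. Each run is the 250 bases before the start, 5′ to 3′ in the direction of the gene, from RefSeq on GRCm38.p6, with motif letters in capitals. Ndufa6 (chr15:82354292-82354541, minus strand) carries the NRF1 core GCATGCGC. Ndufb7 (chr8:83566508-83566757, plus strand) and Uqcr11 (chr10:80406822-80407071, minus strand) carry the ETS letters CCGGAAG, and Sdhd (chr9:50603850-50604099, minus strand) carries them on the other strand. In Uqcr11 an NRF1 core also begins 4 bases before the start and runs past the printed end, so it is not in capitals.
Ndufa6: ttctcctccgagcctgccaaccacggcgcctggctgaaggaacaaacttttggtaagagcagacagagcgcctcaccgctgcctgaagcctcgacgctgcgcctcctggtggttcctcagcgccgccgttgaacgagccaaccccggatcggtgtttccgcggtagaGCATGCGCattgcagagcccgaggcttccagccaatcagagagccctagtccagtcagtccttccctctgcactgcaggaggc
Ndufb7: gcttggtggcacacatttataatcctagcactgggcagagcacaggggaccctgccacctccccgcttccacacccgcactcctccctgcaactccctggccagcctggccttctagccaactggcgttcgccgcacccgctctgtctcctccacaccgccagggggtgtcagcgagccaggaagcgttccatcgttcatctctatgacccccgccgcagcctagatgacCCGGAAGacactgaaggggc
Uqcr11: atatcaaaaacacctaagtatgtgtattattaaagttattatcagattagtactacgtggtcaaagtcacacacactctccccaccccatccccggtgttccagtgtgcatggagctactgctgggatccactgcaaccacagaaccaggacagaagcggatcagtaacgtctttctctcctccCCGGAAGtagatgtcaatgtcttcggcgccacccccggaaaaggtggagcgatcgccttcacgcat
Sdhd: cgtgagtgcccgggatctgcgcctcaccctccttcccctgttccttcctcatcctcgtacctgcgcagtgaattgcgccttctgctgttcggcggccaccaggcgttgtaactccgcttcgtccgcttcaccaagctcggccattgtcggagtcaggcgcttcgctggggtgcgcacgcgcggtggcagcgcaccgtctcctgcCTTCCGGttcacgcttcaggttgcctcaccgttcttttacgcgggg
Over the 300 bases around each start, from 250 before to 50 after, 68 of 87 nuclear subunit symbols could be matched to a promoter, and both strands were searched. GCATGCGC was in 14.7% of the subunits' promoters and in 3.05% of all 27025 genes with a promoter, CCGGAAG in 23.5% and 9.93%, AAGGTCA (the core bound by oestrogen-related receptors) in 11.8% and 5.38%, and AAGATGG (YY1) in 14.7% and 7.28%. The letters of at least 1 motif were present in 52% of the 50 matched subunits that were lower in H77L mice and in 47.1% of the 17 matched subunits that were not. Over all 27025 genes with a promoter that share was 23.1%. The promoters of cytosolic ribosomal protein genes held CCGGAAG more often, in 38.8%, and GCATGCGC in 4.48%. These matches describe letters and not binding sites.

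In WT DMSO mice 80 of the 88 nuclear subunit genes were above 1 TPM in every mouse, and 66 had a mean above 100 TPM. Summed over the nuclear subunits, transcripts made up 3.39% ± 0.43 of the TPM of a WT DMSO library (SD, n = 6), and the mitochondrially encoded subunits made up 2.87% ± 1.21. The mitochondrial sum includes genes listed at or near 0, described below, and does not cover their transcripts. It therefore cannot be set against the nuclear sum. In complex I the most abundant nuclear subunit was Ndufa1, an accessory subunit, at 1549 ± 133 TPM, and the least abundant past the filter was Ndufb4b at 6.81 ± 2.87 TPM. Complex II ranged from Sdhd, a membrane anchor, at 624 ± 63.4 TPM to Sdhb, the iron-sulphur subunit, at 267 ± 38.8 TPM. In complex III, Uqcr10 had 1005 ± 141 TPM and the core protein Uqcrc1 240.4 ± 18.9 TPM. Cox8a led complex IV with 1982 ± 260.1 TPM. The highest nuclear subunit of complex V was Atp5f1a, the alpha subunit of the catalytic head, at 1405 ± 81.2 TPM, and the lowest past the filter was Atp5mc2, which encodes the c subunit of the rotor, at 61.2 ± 8.82 TPM. Comparisons of level between genes depend on the gene length behind the TPM, which was inferred from the steps between values and is not stated in the sources used here: for 21 of the 88 nuclear genes that length was over 2 times the canonical transcript, Uqcrc1 (4135 against 1653 bases) and Atp5mc2 (1675 against 731 bases) among them, which lowers their TPM.

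The mitochondrially encoded genes were measured very unequally. mt-Cytb, the only mitochondrially encoded subunit of complex III, had 10710 ± 4440 TPM in WT DMSO mice, mt-Nd1 4824 ± 2227 and mt-Co1, the catalytic subunit of complex IV, 4300 ± 1818. In contrast, mt-Atp8 was listed at 0 in all 35 mice, mt-Nd4l at 0 in 29, mt-Co3 at 0 in 27, mt-Co2 at 0 in 23 and mt-Atp6 at 0 in 21, with 4.38 TPM the highest value any of them reached. These subunits are encoded by every mouse and are needed for complexes I, IV and V, so a value of 0 gives no information on their transcripts. Between 98.9% and 100% of the 75-base windows of these 5 genes and of mt-Nd3 also occur, base for base, elsewhere in the GRCm39 genome, against 61.5% in mt-Nd4, 39.8% in mt-Co1, 5.71% in mt-Nd2, 1.66% in mt-Nd5 and 0 in mt-Nd1, mt-Nd6 and mt-Cytb. mt-Nd6 lies on the opposite strand to its neighbours, and the sources used here do not state that strand was used in counting.

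**Figure D1:**
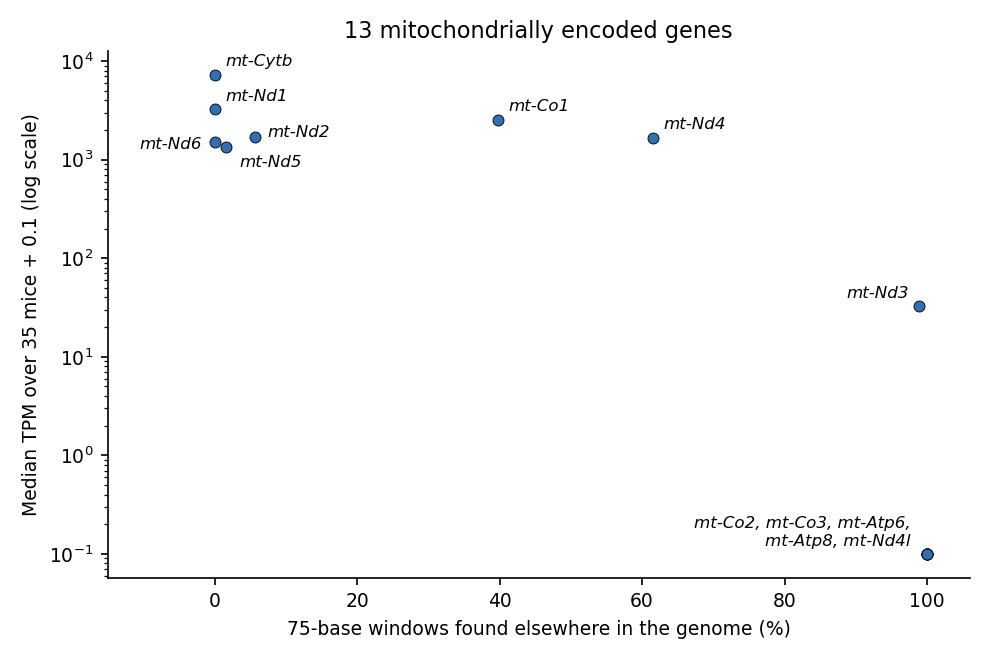
The 13 mitochondrially encoded subunit genes, with the percentage of 75-base transcript windows found elsewhere in GRCm39 on the x axis and the median TPM over 35 mice plus 0.1 on a log y axis; each point is 1 gene. mt-Co2, mt-Co3, mt-Atp6, mt-Atp8 and mt-Nd4l coincide at 100% and a median of 0, mt-Nd3 lies at 98.9% and the 7 other genes lie above 1000 TPM.

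Several nuclear subunits have near copies as well. The share of windows found elsewhere was 88% for Atp5mc2, 82.4% for Ndufb4b, 76.4% for Atp5mc1, 70% for Cox7c, 69% for Ndufs5, 61.8% for Atp5mg, 40.9% for Uqcrb, 39.7% for Ndufb4 and 35% for Cox7a2l, so the values of these genes are uncertain. For 81 nuclear subunits the spread between mice of a group was 0.21 on the log2 scale (median SD), from 0.12 in Atp5f1b to 1.02 in Cox7b2, whereas it was 0.44 for 8 mitochondrially encoded genes and 0.29 for all 11306 genes past the filter.

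The sorted cells carried podocyte transcripts in every library: all 14 podocyte markers had a median above 1 TPM. Lmx1b itself ranged from 44.8 to 89.7 TPM in WT DMSO mice, from 89.9 to 139.5 TPM in H77L DMSO mice and from 37.4 to 185.4 TPM in C118F DMSO mice. These counts cannot tell the alleles apart. Libraries differed in other cells' transcripts before any comparison was made. The summed TPM of 22 tubule markers, of which 14 had a median above 1 TPM and none was at 0 throughout, was 451, 3124, 182, 154, 725 and 185 in the 6 WT DMSO mice, 348, 1516, 144, 339, 370 and 117 in WT Btz mice and 57.5, 44.3, 88.1, 50.9, 1480 and 103 in H77L DMSO mice. It was 464 in C118F DMSO mouse 4 and at most 371 in all other mice. The most abundant tubule marker, Gatm, ranged from 17.9 to 269 TPM, and Miox reached 593 TPM in WT DMSO mouse 2. WT DMSO mouse 1 also stood apart by leukocyte markers (361 TPM, led by Lyz2, with Ms4a1 at 0 in every mouse) and C118F DMSO mouse 1 by the mesangial and smooth muscle list (3200 TPM), which in that library was led by Ren1 (renin) at 2166 TPM, with Des at 529 TPM, whereas Des led the list over all mice and Ren1 had a median of 2.67 TPM in C118F DMSO mice. The same C118F mouse had the highest sum of endothelial markers, 126 TPM, led there by Pecam1 (25.3 TPM) and Emcn (22.4 TPM), against at most 53.1 TPM in the other mice, where Ehd3 led the list. Parietal epithelial markers summed to between 102 and 344 TPM, with Aldh1a2 the highest gene in 24 mice and Cldn1 in 11, among them H77L DMSO mouse 6 with the highest sum (Cldn1 at 187 TPM).

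Whether loss of wild-type Lmx1b was accompanied by other subunit levels was asked first for H77L under DMSO. Nuclear subunits were lower throughout the chain: 55 of the 81 tested fell and 1, Cox6b2, rose, where 22.4% of all 10964 genes were called lower and 22.4% higher (limma on log2(TPM + 1), Benjamini-Hochberg adjusted p under 0.05). The median log2 fold change was -0.38 for the nuclear subunits, 77 of which had a negative value, and -0.01 for all genes. Summed nuclear subunit TPM lay between 24037 and 28059 in the 6 H77L mice and between 28790 and 39889 in the 6 WT mice, without overlap. Since the values are shares of pools of cells, fewer cells of a type and less RNA per cell cannot be told apart.

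**Figure D2:**
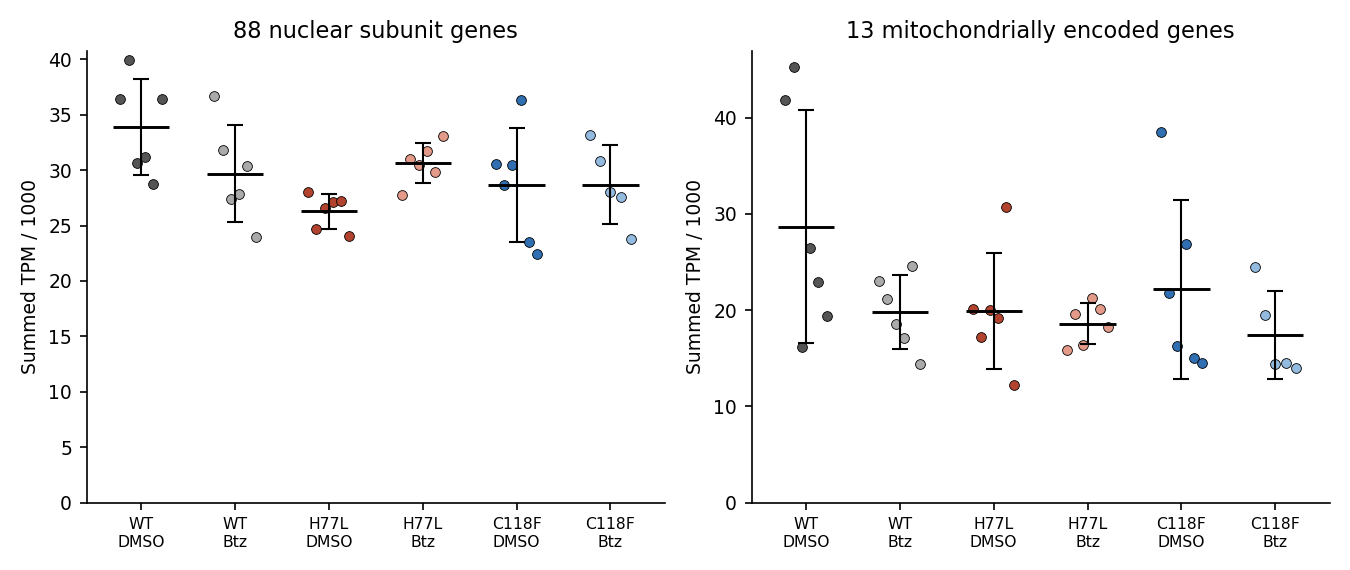
Summed TPM (y axis, divided by 1000) of the 88 nuclear subunit genes, left, and of the 13 mitochondrially encoded genes, right, by group; each point is 1 mouse, the thick line is the mean and the bars show the SD. In nuclear subunits all 6 H77L DMSO mice lie below all 6 WT DMSO mice, while the mitochondrially encoded genes overlap between all groups.

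Complex I, the largest complex, had 27 of its 36 tested nuclear subunits lower and none higher. Ndufs7, a core subunit that holds an iron-sulphur cluster, had 228, 231, 233, 234, 241 and 255 TPM in the WT DMSO mice and 135, 138, 143, 147, 162 and 166 TPM in the H77L DMSO mice. All H77L mice lay below all WT mice, and the log2 fold change was -0.67 ± 0.07 (SE, n = 6 and 6, limma adjusted p = 5.65e-06), a fall of TPM + 1 with a percent change of -37.2. Ndufb10, an accessory subunit of the membrane arm, had 428, 503, 509, 541, 544 and 609 TPM in WT and 253, 287, 297, 309, 312 and 340.4 TPM in H77L mice, again without overlap (log2 fold change -0.80 ± 0.09, limma adjusted p = 1.50e-05). Ndufb7, whose promoter is shown above, fell by 0.65 on the log2 scale (limma adjusted p = 8.37e-05), Ndufv1, the subunit that binds FMN and NADH, by 0.53 (limma adjusted p = 0.000214), Ndufa6 by 0.74 (limma adjusted p = 0.000316) and Ndufa7 by 0.55 (limma adjusted p = 0.000334). Not all core subunits of the matrix arm were lower: Ndufs1 had a log2 fold change of 0.07, which did not pass the threshold. It was chosen after its value was seen. Among the 36 subunits of complex I, the groups did not overlap in 19.

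In complex II, which has no mitochondrially encoded subunit, the 3 smaller subunits fell, among them Sdhd by 0.53 on the log2 scale (limma adjusted p = 0.000245), and Sdha, the catalytic flavoprotein, had a log2 fold change of -0.01. Sdhd had 537, 572, 607, 652, 672 and 704 TPM in WT DMSO mice and 380.2, 412, 418, 437, 452 and 480 TPM in H77L DMSO mice, which did not overlap. In complex III, 6 of 8 subunits were lower, led by Uqcr11 (log2 fold change -0.55 ± 0.09, limma adjusted p = 0.000342). In complex V, 11 of 18 were lower and none higher. All groups apart counted, 27 nuclear subunits lay lower in every H77L mouse than in every WT mouse, against 10.1% of all genes.

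Complex IV had 8 of 15 tested subunits lower, with the largest differences in isoform genes. Cox7a1, the heart and muscle form of subunit 7a, had 12.3, 18.9, 19.9, 39.5, 55.0 and 56.8 TPM in WT DMSO and 4.79, 6.36, 8.42, 8.90, 10.4 and 24.6 TPM in H77L DMSO mice (log2 fold change -1.55 ± 0.39, limma adjusted p = 0.00576). The highest WT values, 56.8 and 55.0, were those of mice 1 and 2, and the highest H77L value that of mouse 5, 3 of the 6 mice with over 400 TPM of tubule markers. Cox7b2 fell by 0.98 on the log2 scale (limma adjusted p = 0.0169). Cox6b2, the testis form of subunit 6b, had 14.2, 16.8, 16.9, 17.5, 19.95 and 20.1 TPM in WT DMSO and 25.8, 27.7, 27.7, 28.1, 36.5 and 40.4 TPM in H77L DMSO mice. It rose by 0.77 ± 0.13 on the log2 scale (limma adjusted p = 0.000265) with every H77L mouse above every WT mouse and stayed far below the 310.2 TPM that was the median of the 80 nuclear subunits past the filter in WT DMSO mice. Cox4i2, Cox6a2, Cox8b, Cox8c and Ndufa4l2 did not pass the filter on low values, and neither did Ndufb11b nor 1 of 2 rows named Atp5po, both listed at 0 in every mouse.

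**Figure D3:**
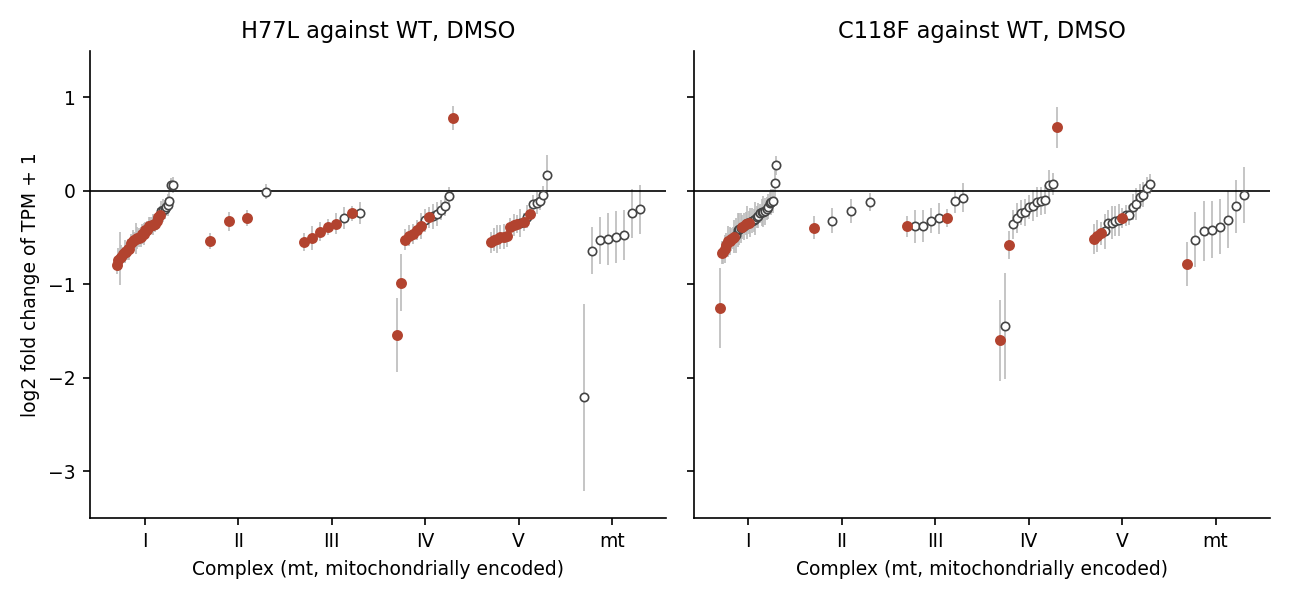
Log2 fold change of TPM + 1 against WT under DMSO for each tested subunit, by complex, with H77L on the left and C118F on the right; mt marks the mitochondrially encoded genes, bars show the SE and filled points passed an adjusted p of 0.05. In H77L mice the filled points lie below 0 in all 5 complexes and Cox6b2 is the 1 above it, and fewer points are filled for C118F.

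Of the mitochondrially encoded genes, 8 were tested and none was called between H77L and WT under DMSO, although all 8 had negative log2 fold changes (median -0.50) and 2 had an unadjusted p under 0.05. mt-Cytb had 5901, 7543, 8423, 10060, 15810 and 16520 TPM in WT and 4149, 6478, 7279, 7401, 7757 and 11180 TPM in H77L DMSO mice, which overlapped widely (log2 fold change -0.50 ± 0.28, limma adjusted p = 0.166). The highest summed mitochondrial values were 45283 and 41772 TPM in WT DMSO mice 2 and 1, 38475 TPM in C118F DMSO mouse 1 and 30717 TPM in H77L DMSO mouse 5, all of them mice that stood apart by the markers of other cells given above. Without H77L DMSO mouse 5, 3 mitochondrially encoded genes were called, and without WT DMSO mouse 3 or mouse 6 there were 2 or 1.

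The nuclear count for H77L lay between 50 and 60 with any 1 mouse omitted. Without the 3 WT and 1 H77L mice above 400 TPM of tubule markers 41 nuclear subunits were called, and with the tubule marker level as a covariate 42. Tubule marker sums had a median of 318 TPM in WT DMSO and 72.8 TPM in H77L DMSO mice, so that fit cannot fully separate tubule level from genotype. With the mouse number of the labels as a covariate the count was 32; WT DMSO mice had lower numbers (median 46512.5) than H77L DMSO mice (median 48202.5), and what the numbers mark was not given.

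Related genes were counted in the same comparison, in lists chosen with earlier results of these data known; of all genes 22.4% were lower and 22.4% higher. Among assembly factors, 22 of 47 were lower and none higher, led by Higd2a, which belongs to the assembly of complex IV (log2 fold change -0.82, limma adjusted p = 5.25e-06), Uqcc3 (-0.80) of complex III and Ndufaf3 (-0.75) of complex I. Of mitochondrial ribosomal proteins, which make the mitochondrially encoded subunits, 54 of 78 were lower and none higher (median log2 fold change -0.34), with Mrps24 (-0.79), Mrpl28 (-0.59) and Mrpl36 (-0.78) in front. The lower values were not limited to mitochondrial genes: 69 of 82 cytosolic ribosomal proteins were lower and 1 higher (median -0.50), Rps3 (-0.70), Rpl10 (-0.77) and Rps19 (-0.66) in front. Among other subunits and carriers 5 of 12 were lower and 1 higher, with Etfb (-0.65), Ndufc1 (-0.45) and Cyc1 (-0.33) past the threshold. In 2 lists the counts lay near or below these shares. Of 20 genes of mitochondrial biogenesis 5 were lower and 2 higher: Twnk, the mitochondrial DNA helicase, fell by 0.97 on the log2 scale and Mterf1a by 1.20, while Pprc1, a PGC-1-related coactivator, rose by 1.23. Of 21 genes of the citrate cycle or of pyruvate dehydrogenase and its kinases, 4 were higher and 5 lower. Pdk4, which switches off pyruvate dehydrogenase, was higher by 3.84, Pdha1 higher by 0.48 and Pdk2 lower, at -0.60. In glycolysis 9 of 18 were higher and none lower, led by Pkm (0.86), Hk1 (0.77) and Eno1 (0.48).

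Podocyte markers moved with genotype too. Their summed TPM was 29624 ± 4843 in WT DMSO and 9066 ± 1820 in H77L DMSO mice (SD, n = 6 and 6), with 9 of 14 lower and 3 higher, and the mesangial list rose from 76.1 ± 45.2 to 770.3 ± 157 TPM with 2 of 3 tested genes higher. The rise lay mainly in Des (mean 34.8 to 464.7 TPM) and Pdgfrb (14.4 to 247.1 TPM), and Acta2 went from 16.4 to 50.9 TPM. Means of Ren1 (8.05 to 5.59 TPM), Gata3 (1.08 to 0.22 TPM) and Pdgfra (0.63 to 0.06 TPM) were lower. Itga8 (0.11 to 0.23 TPM) and Myh11 (0.72 to 1.43 TPM) stayed low. Of the other lists, 1 tubule gene of 8 tested was higher and 1 lower, 3 of 4 parietal epithelial genes were higher, 1 of 2 leukocyte genes was higher and the 1 tested endothelial gene was not called. The part of these markers in the subunit values was not tested.

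C118F mice under DMSO showed fewer calls. Of 80 nuclear subunits tested, 22 were lower and 1 higher, where 16.6% of 10899 genes were lower and 13.7% higher, and the median log2 fold change was -0.30 against -0.06 for all genes. Over all genes the calls were 1810 lower and 1498 higher, and with median-ratio scaling of the libraries 1380 lower and 1711 higher, when the median of the nuclear subunits was -0.25. Summed nuclear subunit TPM ranged from 22393 to 36288 and overlapped with WT. Both genotypes were compared with the same 6 WT mice, so the 2 comparisons are not independent.

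Of the 22 lower subunits 13 belonged to complex I. Ndufb10 had 269, 270.1, 351, 351, 372 and 377 TPM in C118F DMSO mice, all below the WT values given above (log2 fold change -0.66 ± 0.12, limma adjusted p = 0.000818). Ndufs7 had 114, 128, 140.3, 152, 176 and 202 TPM, also all below WT (-0.66 ± 0.12, limma adjusted p = 0.00112). Ndufb4 fell by 0.58 on the log2 scale (limma adjusted p = 0.00237), with 72.0 to 110.1 TPM against 111.1 to 149 TPM, Ndufs5 by 0.51, Ndufa6 by 0.62 and Ndufv1 by 0.52. Groups did not overlap in 4 of 80 nuclear subunits, which is below the 7.18% of all genes. In complex IV, Cox7a2l, which takes part in joining complexes III and IV, fell by 0.58 (limma adjusted p = 0.00911) and Cox7a1 by 1.601 (limma adjusted p = 0.0124), whereas Cox6b2 rose by 0.68 ± 0.22 with 16.1 to 49.2 TPM, overlapping with WT. mt-Nd3 was the 1 mitochondrially encoded gene called of 8 (-0.78 ± 0.24, limma adjusted p = 0.0220), with 25.1 to 46.6 TPM in C118F and 43.2 to 130.3 TPM in WT DMSO mice; as its reads are largely shared with other loci and it was at 0 in 3 mice of other groups, this value is uncertain.

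These calls depended on single libraries and on the covariates fitted. The nuclear count for C118F under DMSO was 12 without WT mouse 6, 14 without WT mouse 1 or 2, 15 without WT mouse 4, 13 without C118F mouse 5, 15 without C118F mouse 2 or 6 and 37 without C118F mouse 4. It was 11 without the 3 WT and 1 C118F mice above 400 TPM of tubule markers and 3 with the tubule marker level as a covariate. With that covariate the median log2 fold change was -0.11 for the nuclear subunits and -0.11 for all genes, and with mouse number as a covariate it was -0.12 against -0.10. Tubule marker sums had a median of 318 TPM in WT DMSO and 70.2 TPM in C118F DMSO mice. The tubule covariate thus differed with genotype, and the fit with it cannot fully separate tubule level from genotype.

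Around the subunits, where 16.6% of all genes were lower and 13.7% higher, C118F mice had 16 of 47 assembly factors lower and none higher (Uqcc1 -0.63, Higd2a -0.70, Coa5 -0.62), 21 of 78 mitochondrial ribosomal proteins lower (Mrpl48 -0.64, Mrpl53 -0.49, Mrpl55 -0.40), 39 of 82 genes with symbols of cytosolic ribosomal proteins lower and 1 higher (Rpl7l1 0.45, Rpl10 -0.69, Rpl18 -0.57), and 9 of 18 glycolytic genes higher and 1 lower (Pkm 0.71, Gapdh 0.64, Aldoa 0.41). Twnk (-0.97), Polg2 (-1.08) and Mterf1a (-0.98) were among 5 biogenesis genes of 20 that were lower, none being higher. Citrate cycle and pyruvate dehydrogenase genes were 1 higher and 5 lower of 21 (Pdk4 3.83, Pdk2 -0.69, Suclg2 -0.46), and other subunits and carriers 2 higher and 1 lower of 12 (Coq10b 0.67, Slc25a4 0.40, Etfb -0.54).

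Markers of other cells differed in C118F mice as well. Summed podocyte markers were 8585 ± 2824 TPM in C118F DMSO mice (SD, n = 6), with 9 of 14 lower and none higher, and the mesangial list had 2 of 3 tested genes higher, Des and Pdgfrb, and summed to between 628 and 3200 TPM (median 822). Of the other lists, 2 of 7 tubule genes were lower, 3 of 4 parietal epithelial genes were higher, 1 of 3 leukocyte genes was higher and 1 lower, and the 1 tested endothelial gene was not called. Their part in the subunit values was not tested.

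C118F and H77L were also compared with each other. Under DMSO no gene at all was called (0% of 10809), and at an unadjusted p under 0.05 there were 4 nuclear subunits higher and none lower in C118F mice, where 1.72% of all genes were higher and 2.13% lower. That count was between 0, without H77L DMSO mouse 2, and 10, without C118F DMSO mouse 6, when single mice were left out. The median log2 difference of the nuclear subunits was 0.08, and between 0.01 and 0.15 in those fits. Atp5mj, a small membrane subunit of complex V, had a difference of 0.24 with a 95% interval from 0.03 to 0.44 and Cox7b of 0.26 with an interval from 0.04 to 0.48 (limma adjusted p = 0.931 for both).

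**Figure D4:**
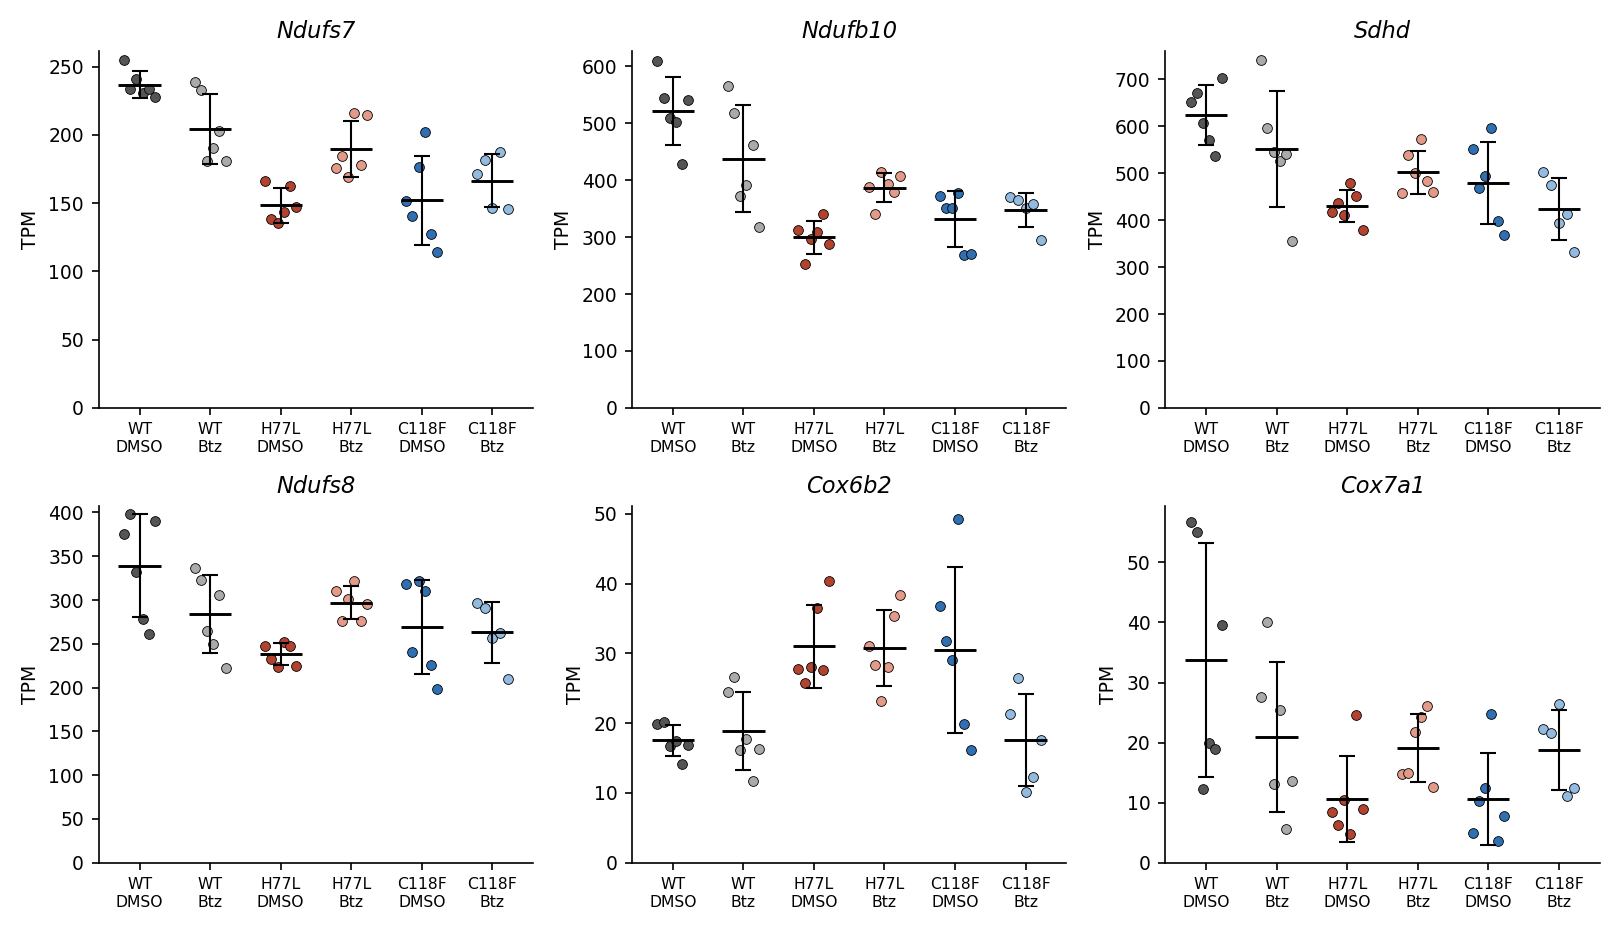
TPM of 6 subunit genes in every mouse by group; points are mice, thick lines the mean and bars the SD. Ndufs7, Ndufb10 and Sdhd separate H77L DMSO from WT DMSO mice downwards and Cox6b2 upwards, Ndufs8 separates H77L Btz from H77L DMSO mice, and Cox7a1 varies widely within groups.

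Genotypes were also compared under bortezomib. Of 81 nuclear subunits, 4 were higher and 2 lower in H77L than in WT Btz mice, below the 12.5% of 10805 genes that were higher and the 11.0% that were lower, and the median log2 fold change was 0.05, or 0.15 with mouse number and 0.17 with the tubule marker level as a covariate. With single mice left out it lay between -0.01, without WT Btz mouse 6, and 0.11, without WT Btz mouse 1. Cox6b2 was again higher (0.71 ± 0.18, limma adjusted p = 0.00748), with 23.2 to 38.4 TPM in H77L and 11.8 to 26.6 TPM in WT Btz mice. Ndufb9 (0.39) and Cox7c (0.25) were among the others that were higher, and Ndufb4 (-0.37) and Ndufa6 (-0.26) lower. In C118F Btz mice 1 subunit was higher, Ndufa4 (0.31), a subunit of complex IV, and 2 were lower, Ndufa6 (-0.43 ± 0.12, limma adjusted p = 0.0123) and Ndufb4 (-0.53 ± 0.15, limma adjusted p = 0.0163), where 15.1% of 10916 genes were higher and 12.4% lower. No mitochondrially encoded gene was called in either comparison, where none of 7 and none of 8 had an unadjusted p under 0.05. The counts for H77L ran from 1 to 9 and those for C118F from 2 to 8 when single mice were left out: without H77L Btz mouse 5 the H77L count was 1, without WT Btz mouse 3 or 5 or H77L Btz mouse 2, 3 or 4 it was 2, without WT Btz mouse 2, 4 or 6 or H77L Btz mouse 1 or 6 it was 3, and the C118F count was 5 without WT Btz mouse 1 and 8 without WT Btz mouse 6. C118F and H77L Btz mice did not differ in any nuclear subunit at the threshold, while 0.713% of 10803 genes were higher and 0.259% lower. At an unadjusted p under 0.05, 10 nuclear subunits were lower and none higher in C118F Btz mice, against 6.03% and 8.40% of all genes, led by Cox6b2 (log2 difference -0.83, 95% interval from -1.28 to -0.38, limma adjusted p = 0.0782) and Ndufb7 (-0.24, interval from -0.44 to -0.04). The unadjusted count was 2 with mouse number or the tubule marker level as a covariate, 3 with all 35 mice in 1 fit and 22 with array weights, and with any 1 mouse omitted it lay between 1, without C118F Btz mouse 5, and 27, without C118F Btz mouse 1. In the same comparison and at the same p, 13 of 78 mitochondrial and 9 of 82 cytosolic ribosomal proteins and 8 of 47 assembly factors were lower. Of the markers, 3 of 14 podocyte genes were lower, of which Synpo was called (-0.53 ± 0.12, limma adjusted p = 0.0467), 2 of 3 mesangial, 2 of 4 parietal epithelial and 1 of 2 leukocyte genes were higher, and 1 of 6 tubule genes and the 1 endothelial gene were lower. Their part in the subunit values was not tested. Without C118F Btz mouse 1 or mouse 2, 1 nuclear subunit was called.

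The effect of bortezomib itself was compared within each genotype. In H77L mice 6 of 81 nuclear subunits rose after bortezomib and none fell, where 0.416% of 10813 genes rose and 0.740% fell; none was called with all 35 mice in 1 fit or without any 1 of 6 of the mice. Of the 81, 57 had an unadjusted p under 0.05 in the upward direction and none downward, against 10.5% and 9.46% of all genes. The calls over all genes, 45 higher and 80 lower, were 26 and 90 with median-ratio scaling. The median log2 fold change was 0.23 for the nuclear subunits, positive in 78, and 0.00 for all genes. Summed nuclear subunit TPM was 26286 ± 1575 in H77L DMSO and 30650 ± 1793 in H77L Btz mice (SD, n = 6 and 6), with 1 Btz mouse, at 27775 TPM, inside the DMSO range.

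Ndufs8, a core iron-sulphur subunit of complex I, had 224, 225, 233, 247, 248 and 252 TPM in H77L DMSO and 276, 276, 295, 302, 311 and 322 TPM in H77L Btz mice. The groups did not overlap, and the log2 fold change was 0.32 ± 0.06 (limma adjusted p = 0.0352). Atp5mj had 221 to 275 TPM and 298 to 351 TPM, also apart (0.36 ± 0.07, limma adjusted p = 0.0352). Ndufb10 rose by 0.37 ± 0.08, Atp5mf of complex V by 0.35 ± 0.07, Ndufv2, a core subunit of complex I, by 0.31 ± 0.07 and Cox7c of complex IV by 0.29 ± 0.07. Groups were apart in the upward direction in 9 nuclear subunits, against 1.22% of all genes. The mitochondrially encoded genes were not called, and their median log2 fold change was -0.06 over 7 genes.

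The 6 calls did not stand on all libraries: none remained without H77L DMSO mouse 2 or 4 or H77L Btz mouse 2, 3, 4 or 6, there were 1 without H77L DMSO mouse 3, 2 without H77L Btz mouse 5, 10 without H77L DMSO mouse 1 and 12 without H77L Btz mouse 1. The unadjusted upward count was between 50 and 60 in these fits and 31 with all 35 mice in 1 fit, and no nuclear subunit had an unadjusted p under 0.05 downward in any of them.

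Related genes and markers were counted for bortezomib in H77L mice as well. At an unadjusted p under 0.05, 34 of 78 mitochondrial and 36 of 82 cytosolic ribosomal proteins were higher and none lower, with median log2 fold changes of 0.18 in both lists, and 13 of 47 assembly factors were higher, against 10.5% of all genes higher and 9.46% lower. At the adjusted threshold Mrps18c and the assembly factor Ndufaf4 were higher. Summed podocyte markers were 9066 ± 1820 TPM in H77L DMSO and 11946 ± 1458 TPM in H77L Btz mice (SD, n = 6 and 6), with none of 14 called and 6 higher at an unadjusted p under 0.05. The mesangial list summed to 770.3 ± 157 and 504 ± 73.9 TPM, and 1 of 3 tested genes was called, Des, which fell by 0.52 on the log2 scale. No gene of the tubule, parietal epithelial, endothelial and leukocyte lists was called. At an unadjusted p under 0.05, 2 of 3 mesangial and 3 of 4 parietal epithelial genes were lower (median of the latter -0.49), and the 1 tested endothelial gene was higher. The part of these markers in the subunit values was not tested.

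**Figure D5:**
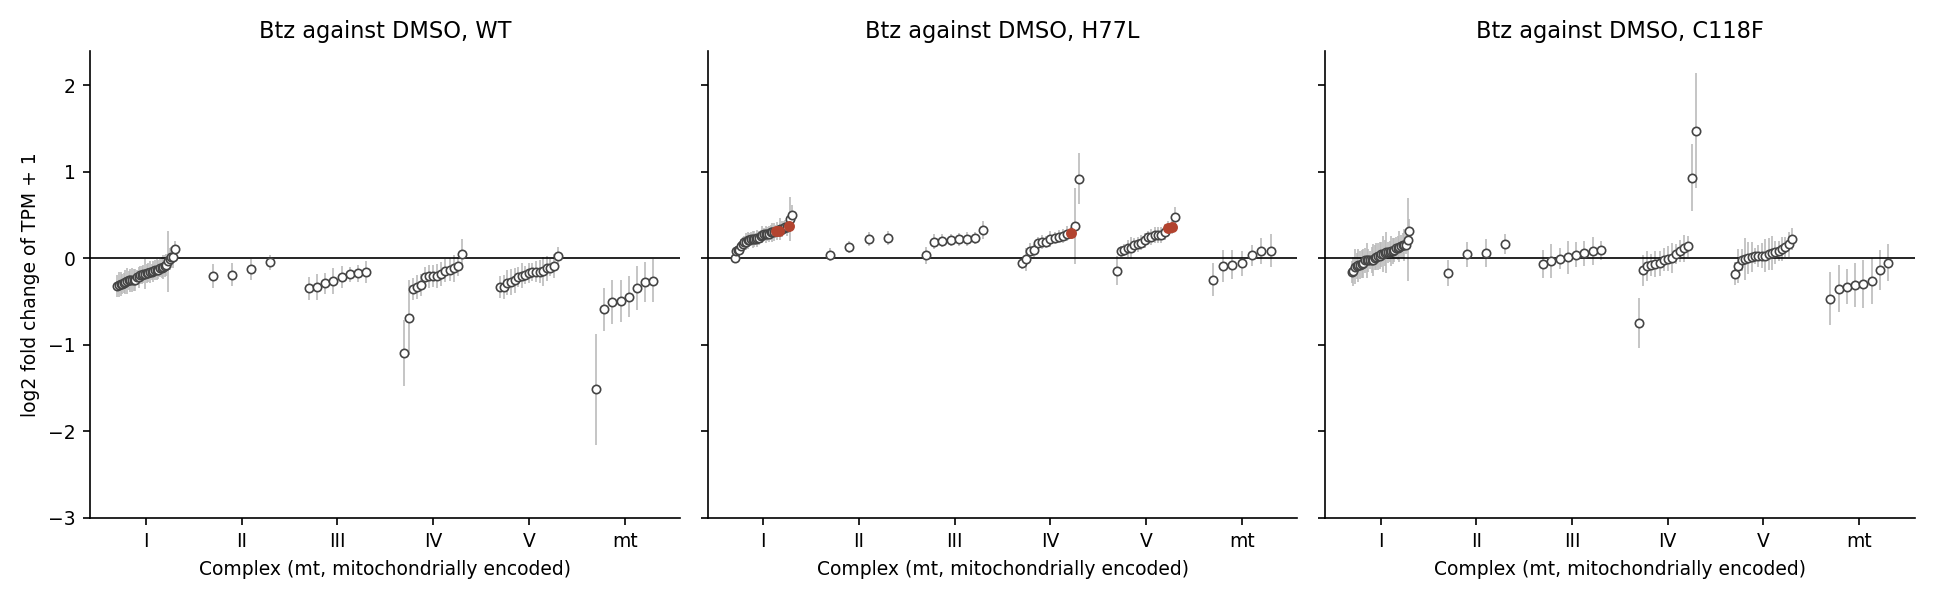
Log2 fold change of TPM + 1 after bortezomib against DMSO for each tested subunit, by complex, in WT, H77L and C118F mice; mt marks the mitochondrially encoded genes, bars show the SE and filled points passed an adjusted p of 0.05. Most points lie above 0 in H77L mice and below 0 in WT mice, and the 6 filled points are all in H77L mice.

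In WT mice no gene was called after bortezomib (0% of 10659), and 75 of 80 nuclear subunits had negative log2 fold changes (median -0.19, all genes 0.01). At an unadjusted p under 0.05, 15 were lower and none higher, against 4.05% and 4.61% of all genes. That count was 3 without the mice above 400 TPM of tubule markers and 1 with mouse number as a covariate, and with any 1 mouse omitted it lay between 4, without WT Btz mouse 6, and 38, without WT Btz mouse 1. The median was -0.10 with mouse number as a covariate. All 8 mitochondrially encoded genes tested had negative log2 fold changes (median -0.47), 2 of them with an unadjusted p under 0.05. Cytosolic ribosomal proteins had 31 of 82 lower and none higher at an unadjusted p under 0.05 (median -0.24), and mitochondrial ribosomal proteins 7 of 78 lower and none higher (median -0.14). Among the subunits the lowest p belonged to Cox7b2 (-1.09 ± 0.38) and Cox7a2l (-0.35 ± 0.13, limma adjusted p = 0.560 for both). Of the markers, 1 of 2 leukocyte and 1 of 7 tubule genes were lower and 2 of 14 podocyte genes higher at an unadjusted p under 0.05. Leukocyte markers summed to 80.2 ± 140.1 TPM in WT DMSO and 6.28 ± 3.95 TPM in WT Btz mice (SD). Tubule markers summed to 804 ± 1158 and 472 ± 523 TPM. The part of these markers in the subunit values was not tested. In C118F mice no gene was called either (0% of 10814), 3 nuclear subunits were higher and 1 lower at an unadjusted p under 0.05, against 3.27% and 2.59% of all genes, and the median was 0.03, or -0.03 with median-ratio scaling and -0.02 with voom on recovered reads. With any 1 mouse omitted it lay between -0.04, without C118F Btz mouse 1, and 0.11, without C118F DMSO mouse 4. With mouse number as a covariate it was 0.21, with 27 nuclear subunits higher and none lower at an unadjusted p under 0.05. The subunits with the lowest p were Cox6b2 (-0.75, 95% interval from -1.37 to -0.12) and Cox7a1 (0.93, interval from 0.09 to 1.77), both with a limma adjusted p of 0.813. All 8 mitochondrially encoded genes tested in C118F mice had negative log2 fold changes (median -0.30), none with an unadjusted p under 0.05.

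The difference between the responses was tested directly. Between H77L and WT no gene passed the threshold (0% of 11163). At an unadjusted p under 0.05, 64 of 81 nuclear subunits had the higher response in H77L mice and none the lower, where 9.48% of all genes were higher and 8.77% lower, and the median difference was 0.42 against -0.01 for all genes. Cytosolic ribosomal proteins had the same median, 0.42, with 59 of 82 higher and none lower at an unadjusted p under 0.05, and mitochondrial ribosomal proteins had 33 of 78 higher and none lower (median 0.32). Ndufs7 had the lowest p (difference 0.57, 95% interval from 0.33 to 0.81, limma adjusted p = 0.0648), followed by Ndufb10 (0.64, interval from 0.32 to 0.97, limma adjusted p = 0.0814). The response of Ndufs7 in WT mice was -0.22 ± 0.09 and did not pass the threshold (limma adjusted p = 0.560), nor did its response in H77L mice, 0.35 ± 0.08 (limma adjusted p = 0.0503). Without WT Btz mouse 1 there were 23 nuclear subunits called, without WT DMSO mouse 5 there were 15, and without H77L DMSO mouse 5 there was 1. The 8 mitochondrially encoded genes all had positive differences (median 0.40), none with an unadjusted p under 0.05. Of the markers, at an unadjusted p under 0.05, 3 of 14 podocyte genes had the higher response and 4 the lower. The lower response was also found in 1 of 3 mesangial and 2 of 4 parietal epithelial genes. The part of these markers in the subunit values was not tested. The responses of C118F and WT did not differ in any gene at the threshold (0% of 11197), with 6 nuclear subunits higher and 1 lower at an unadjusted p under 0.05 against 3.05% and 1.95% of all genes, led by Cox7b2 (2.57, interval from 0.89 to 4.24) and Cox7a1 (1.62, interval from 0.30 to 2.93). With mouse number as a covariate 43 were higher and 1 lower, and the median was 0.32 where it was 0.23 without it. The higher count was 2 with median-ratio scaling and 1 with voom on recovered reads. With any 1 mouse omitted the higher count lay between 2, without C118F DMSO mouse 5 or C118F Btz mouse 4, and 12, without C118F DMSO mouse 4. Those of H77L and C118F did not differ either (0% of 11046), with 10 higher and none lower in H77L against 2.97% and 4.64%, led by Cox7a2 (0.37, interval from 0.06 to 0.67) and Sdhd (0.40, interval from 0.06 to 0.73). The count was 2 with mouse number as a covariate or without the mice above 400 TPM of tubule markers, and with any 1 mouse omitted it lay between 2, without C118F DMSO mouse 4 or C118F Btz mouse 5, and 20, without C118F DMSO mouse 6. All 3 differences share groups.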

How the data were processed

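Podocytes were sorted by their green fluorescence after bead perfusion, and polyA RNA libraries were made with the SMART-Seq mRNA LP kit. Per the labels and methods, the authors trimmed single-end reads with Trim Galore 0.6.7, aligned them with STAR 2.7.8a to GRCm39 (Ensembl 110), keeping 1 random location for multimapping reads, and counted them with featureCounts 1.6.3. The authors deposited TPM values; the step from counts to TPM was not given in the sources used here. No column was left unused (0).

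Gene symbols came from GENCODE vM39, which held 32776 of the 33292 identifiers; 516 were not matched. Whole reads were recovered from the TPM steps for all but 7 of 23943 genes above 0, which gave the depth of each mouse. Depth limits low genes in C118F Btz mouse 2 (5265161 reads) most. The 12 comparisons were fitted with limma 3.58.1 (R 4.3.3) on log2(TPM + 1), so fold changes of low genes are understated, over genes above 1 TPM in every mouse of at least 1 group compared, with a trended prior and Benjamini-Hochberg adjustment over all genes tested. A gene was called at an adjusted p under 0.05. The script was tested on simulated data. Error bars given as ± after a log2 fold change are standard errors and after a TPM are SD. Each replicate is a mouse, and no 2 libraries were identical (0 pairs); within groups, correlations over 11306 genes had medians from 0.942 to 0.982.

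Named genes were all 13 mitochondrially encoded genes, the highest and lowest nuclear subunit of each complex in WT DMSO mice, all isoform genes, up to 8 called subunits per comparison and direction by adjusted p (or the 2 with the lowest p), up to 3 called genes of each related list, Lmx1b, and the most abundant marker and those at 0 of each cell type list; Atp5mg, Ndufs1, Sdha and others named for shared windows, as exceptions or for values mouse by mouse (the 13 genes screened for mice standing apart) were chosen after their values were seen. A few values that this rule covers are not reported here. The members and lists were chosen with earlier results of these data known. Both ribosomal lists were taken by symbol, so the cytosolic list also holds genes only named like ribosomal proteins, such as Rpl7l1. Alternatives were another pseudocount (0.1), no filter, 3 other scalings, 1 fit over all 35 mice, the stricter cutoffs of the study (adjusted p of 0.001 and log2 fold change of 2), mouse number as a covariate, array weights and leaving out each mouse; voom on recovered reads and 2 treatments of tubule markers were added after seeing the data.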

Additional observations from a re-analysis of the deposited data

Results flagged for a closer look

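In 90 groups of mice, formed from 13 genes and the 2 summed levels given above, 4 groups held a mouse that stood apart by Dixon's rule, and chance gives about 1 in 20. Ndufb10 in C118F Btz mice had a low value of 294.7 TPM in mouse 5. Cox7a1 in H77L DMSO mice had a high value of 24.6 TPM in mouse 5, the H77L DMSO mouse with 1480 TPM of tubule markers. Atp5mj reached 448.3 TPM and mt-Nd3 130.3 TPM in WT DMSO mouse 2, the mouse with 3124 TPM of tubule markers. The part of the tubule transcripts in these values was not tested.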

How the results depend on the processing

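For H77L against WT under DMSO, 56 nuclear subunits were called, between 41 and 58 under most alternatives, 32 with mouse number as a covariate and 0 at the cutoffs of the study; the mitochondrially encoded count of 0 became 1 with quantile normalization or with all mice in 1 fit and 2 with voom, and 0 to 3 when single mice were left out. For C118F under DMSO the 23 nuclear calls became 12 without a filter, 9 with median-ratio scaling, 44 with all mice in 1 fit, 0 at the study's cutoffs, 7 with mouse number, 12 with voom, 11 without the mice high in tubule markers and 3 with the tubule covariate, and 12 to 37 without single mice; the 1 mitochondrially encoded call became 0 under no filter, median-ratio scaling, all mice in 1 fit, the study's cutoffs, mouse number, voom and the tubule covariate. Under Btz, the 6 calls for H77L became 1 without a filter, 2 with median-ratio scaling, 3 with all mice in 1 fit, 0 at the study's cutoffs, 11 with mouse number, 2 with voom and 3 without the mice high in tubule markers (1 to 9 without single mice), and the 3 calls for C118F became 7, 0 and 5 with all mice, the study's cutoffs and mouse number, 9 with array weights and 1 with the tubule covariate (2 to 8 without single mice). For bortezomib in H77L mice the 6 calls became 0 without a filter, 3 with median-ratio scaling, 0 with all mice in 1 fit, 0 at the study's cutoffs and 3 with voom (0 to 12 without single mice). Between C118F and H77L Btz mice, 1 was called with array weights (0 to 1 without single mice), and for the difference in response between H77L and WT single-mouse omissions gave 0 to 23. The median log2 fold change of nuclear subunits for C118F against WT under Btz, -0.07, turned to 0.18 with mouse number and 0.15 with the tubule covariate and was -0.0045 without C118F Btz mouse 5, -0.0086 without WT Btz mouse 1 and -0.13 without WT Btz mouse 6 or C118F Btz mouse 1, and mouse number moved the difference in response between H77L and C118F from 0.21 to 0.08 and the difference between C118F and H77L Btz mice from -0.13 to -0.02. With single mice left out, that difference in response lay between 0.13, without C118F Btz mouse 5, and 0.28, without C118F DMSO mouse 6. The difference between C118F and H77L Btz mice lay between -0.18, without C118F Btz mouse 1, and -0.05, without C118F Btz mouse 5. It was -0.07 with the tubule covariate. Tubule marker sums also differed with genotype under Btz, with medians of 344 TPM in WT, 98.2 TPM in H77L and 84.0 TPM in C118F mice. Fits with the tubule covariate therefore cannot fully separate tubule level from genotype. The cause of the changes between settings was not tested. No paired analysis was made because the groups share no replicate numbers in the labels. Some mice of different groups have consecutive mouse numbers, but no label says that these mark a litter or batch. TPM values are shares, so no absolute amount of RNA is known.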

Other observations

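Subunit isoform genes of other tissues were listed at low levels. Cox6a2 and Cox8b, the heart and skeletal muscle forms of subunits 6a and 8, were at 63.0 and 53.9 TPM in WT DMSO mouse 1, the library with 361 TPM of leukocyte markers, at 14.9 and 18.3 TPM in H77L DMSO mouse 5 and at 8.05 and 9.80 TPM in H77L Btz mouse 5. In the other mice Cox6a2 was at most 3.85 TPM, and Cox8b was at 9.95 TPM in WT DMSO mouse 6 and 5.01 TPM in C118F DMSO mouse 4 and at most 3.79 TPM elsewhere, with 0 in 22 mice for Cox6a2 and 26 for Cox8b. Ndufa4l2, a hypoxia-responsive paralogue, reached 10.4 TPM in C118F DMSO mouse 1, the library with 3200 TPM of the mesangial list, and was at 0 in 26 mice. Cox4i2 was at 0 in 25 mice and Cox8c in 32.

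Energy genes outside the chain were called under Btz as well. Of all genes 12.5% were higher and 11.0% lower in H77L Btz mice, and 15.1% were higher and 12.4% lower in C118F Btz mice. Against WT Btz mice, 12 of 18 glycolytic genes were higher in H77L and 9 in C118F mice, none lower, with Gapdh at 1.03 and 1.09 and Pkm at 1.07 and 1.08 on the log2 scale. Of 21 citrate cycle and pyruvate dehydrogenase genes 7 were higher and 1 lower in H77L and 4 higher and 1 lower in C118F mice, with Pdk4 higher by 2.45 and 3.52. Of 19 biogenesis genes 2 were higher in each genotype, Ppargc1a and Pprc1, while 3 were lower in H77L mice, Twnk, Tfb1m and Tfam, and Twnk alone in C118F mice (Twnk at -0.82 and -1.27). The biogenesis counts lay near or below the shares of all genes. Mitochondrial ribosomal proteins had 2 higher and 1 lower of 78 in H77L Btz mice, below the 12.5% and 11.0% of all genes, and 13 lower and none higher in C118F Btz mice, where 12.4% of all genes were lower and 15.1% higher. Both comparisons used the same WT Btz mice.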
